A study of Mus musculus with 21 samples.

Results

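Alas1 and Alas2 code for the 2 forms of aminolevulinate synthase, the enzyme that opens the heme pathway. They were taken by gene symbol from the tables, where they are 2 of 22483 genes, and both were among the 12360 genes with enough counts to be tested. RNA was sequenced from MEDEP cells, a mouse erythroid progenitor line grown from embryonic stem cells, here the single line BRC5, so the data describe 1 line in culture. The 0 h group was growing in medium with stem cell factor and dexamethasone. In the 12, 24, 36, 48 and 72 h groups both had been withdrawn and 4 U/ml erythropoietin (Epo) added, which starts red cell maturation. A further group was kept for 12 h in Epo plus succinyl acetone (SA), which blocks the making of heme. Each of the 7 groups had 3 libraries, which the series describes as biological replicates, and no group carried an engineered allele according to the labels.

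Aminolevulinate synthase joins glycine and succinyl-CoA in the mitochondrial matrix, and its product is used only for heme and related tetrapyrroles. Alas1 is the form of most tissues, and in liver its mRNA is known to fall when heme is plentiful. Alas2 is the erythroid form, lies on the X chromosome, is a known target of the erythroid factor GATA1, and carries an iron-responsive element in its mRNA through which iron controls its translation. SA acts on the next enzyme, aminolevulinate dehydratase (Alad), so that aminolevulinate is still made but heme is not.

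In the GENCODE M21 annotation of GRCm38, Alas1 (ENSMUSG00000032786.16) lies on the minus strand at chr9:106233455-106248654 and Alas2 (ENSMUSG00000025270.13) on the plus strand at chrX:150547375-150570638. The stretches printed here show letters known from erythroid, respiratory and iron control at the start regions of the genes. They come from RefSeq windows of 300 bases (250 before and 50 after a listed start, GRCm38.p6), of which Alas1 has 2 and Alas2 has 1, and the RefSeq start of Alas2 is chrX:150547417, inside the gene as GENCODE places it. Capitals mark the letters searched for on both strands. The first 2 stretches lie at Alas2 and hold AGATAA, the form GATA factors are known to bind, and CCACCC, the core of sites bound by KLF1, both read on the other strand. The next lies at Alas1 and holds CATGCGC, core letters of the palindrome bound by nuclear respiratory factor NRF1, once on each strand with the matches overlapping. The last is from the 5′ end of the Alas2 mRNA and was found as a C, 5 bases, CAGTGN and 5 further bases that pair with the first 5, G-T pairs allowed, which is the shape of an iron-responsive element.
Alas2 AGATAA, chrX:150547319-150547348, plus strand: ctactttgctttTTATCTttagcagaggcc
Alas2 CCACCC, chrX:150547370-150547399, plus strand: cggaaggGGGTGGGGTGGGGTGGgcggggc
Alas1 CATGCGC, chr9:106247906-106247935, minus strand: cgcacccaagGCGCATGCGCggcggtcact
Alas2 iron-responsive element shape, chrX:150547462-150547482, plus strand: ttCgtcctCAGTGCagggcaa

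The AGATAA match ended 80 bases before the RefSeq start of Alas2, and no AGATAA was found in the 2 Alas1 windows. Of all 32851 windows 11.2% held it. CCACCC occurred 3 times, overlapping, 24 bases before the RefSeq start of Alas2 and just after its GENCODE start, and once in 1 of the 2 Alas1 windows, against 31.5% of all windows. The CATGCGC pair lay 29 bases after the first listed Alas1 start and 185 before the second, in a stretch both windows share. CATGCGC was not found in the Alas2 window and occurred in 3.91% of all windows. The iron-responsive element shape was found in the first 150 bases of 2 of 2 Alas2 transcripts and of 0 of 6 Alas1 transcripts. Over all protein-coding genes it was found in 25 of 21813, or 0.115%. G and C made up 65.3% and 73.3% of the Alas1 windows and 52.3% of the Alas2 window, beside a median of 52.7%. These are matches of letters, and binding was not measured.

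The libraries held 16.7 to 39.3 M estimated counts. Globin genes took 0.0466% to 37.0% of them, rising with time. Of the erythroid markers, 11 were in the tables. Their summed level rose from 1110 to 1300 counts-per-million (CPM) at 0 h to 575000 to 904000 CPM at 72 h. All CPM values here are scaled between libraries by the trimmed mean of M values (TMM), so they are not shares of a library's counts. At 72 h globin genes led the sum, Hbb-bs alone standing at 259141 to 424834 CPM. All of the 11 but Rhag and Klf1 were higher at 72 h than at 0 h. Rhag fell from 477 to 526 CPM to 145 to 209 CPM, and Klf1 from 77.8 to 84.1 CPM to 65.0 to 76.4 CPM. The level of 5 hepatocyte markers, which stand for a tissue rich in Alas1, summed to at most 1.67 CPM in any library and to 0.129 to 0.252 CPM with SA. Stromal markers reached 25.1 CPM in 36 h replicate 1 and at most 1.67 CPM in the other libraries. Other marker sums moved with time. That of 4 early progenitor markers went from 1370 to 1470 CPM at 0 h to 42.4 to 44.8 CPM at 24 h. Of these Cd34 was at 0 in both groups, and Gata2 stood at 3.68 to 3.96 CPM at 24 h and 17.4 to 32.3 CPM at 48 h. The sum of 7 megakaryocyte and platelet markers went from 17.6 to 22.3 CPM at 0 h to 1630 to 1750 CPM at 48 h. Most of the latter sum at 48 h was Itga2b alone, at 1495, 1629 and 1602 CPM. There Gp6 stood at 72.6 to 101 CPM, Gp9 at 13.5 to 25.5, Gp1ba at 14.8 to 18.4, Pf4 at up to 0.160, and Gp1bb and Ppbp at 0. The part of these marker changes in the time course of the pair was not tested. Since globin mRNA came to fill the libraries, 2 scales are used. TPM (transcripts-per-million) is per length and allows a level to be compared between genes, and TMM-scaled CPM sets the bulk of genes near no change. The 2 scales gave near values at 12 h against 0 h and parted from 24 h on. The median log2 change of all genes from 12 to 24 h was -0.32 on the log2(TPM + 1) scale. At 72 h against 0 h the median log2 change of all genes was -0.13 with TMM and -3.26 on the log2(TPM + 1) scale. In RNA from whole cultures, fewer cells of a type and less RNA per cell cannot be told apart.

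Alas2 was the higher of the pair from the start. At 0 h its TPM was 19.6, 18.2 and 16.1, beside 12.1, 13.6 and 14.5 for Alas1. At 12 h Alas2 stood at 425.2, 409.8 and 438.1 TPM. The ranges at 0 h and 12 h lay far apart. In edgeR's quasi-likelihood test Alas2 rose by 4.60 ± 0.17 (log2, SE) from 0 h to 12 h, with an adjusted p of 1.35e-14, in a comparison in which 25.3% of all tested genes were called higher. Only 111 of the 12360 tested genes had a larger fitted rise.

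Alas2 went on rising to 36 h. At 24 h it reached 1195, 1167 and 1130 TPM, and at 36 h 2333, 2428 and 2320 TPM. None of these ranges overlapped the one before. By edgeR the step from 12 to 24 h was 1.75 ± 0.15 (log2, adjusted p = 2.27e-08, 19.1% of genes called higher), and that from 24 to 36 h was 3.01 ± 0.16 (adjusted p = 9.18e-13, 34.1% called higher). On the log2(TPM + 1) scale the second step was smaller, at 1.02 with limma, where 4.3% of genes were called higher. The median change of all genes at that step was -1.84 on this scale and -0.033 with TMM.

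After 36 h the libraries of a group spread more. Alas2 stood at 2269, 2218 and 3275 TPM at 48 h and at 1390, 1099 and 2531 TPM at 72 h. The 48 h range held that of 36 h, and 72 h replicate 3 lay above all 3 libraries of 36 h while the other 2 lay below them. On the TMM scale the step from 36 to 48 h was a rise of 0.73 ± 0.15 (edgeR, adjusted p = 0.000350, 20% called higher), which on log2(TPM + 1) was 0.11 with an adjusted p of 0.674 in limma. The step from 48 to 72 h was 0.025 ± 0.15 with TMM (edgeR, adjusted p = 0.900, 59.2% called in either direction) and -0.70 on log2(TPM + 1) (limma, adjusted p = 0.00794, 59.3% of genes called lower). From 0 h to 72 h Alas2 rose by both, 1104-fold in TMM-scaled CPM and 92.9-fold in TPM, a scale on which limma called 5.26% of genes higher. With edgeR that was 10.11 ± 0.22 (log2, adjusted p = 3.03e-19), where 43.3% of genes were called higher.

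Alas1 moved the other way in the first 12 h. Its TPM of 12.1, 13.6 and 14.5 at 0 h was followed by 8.83, 8.64 and 8.86 at 12 h. All 3 libraries at 12 h lay below all 3 at 0 h. By edgeR Alas1 fell by 0.70 ± 0.13 (log2, adjusted p = 0.000133, 27.6% of genes called lower), to a level 1.63-fold lower. With a pseudocount of 0.1 in TPM the change was -0.60 and missed the threshold (limma, adjusted p = 0.0598).

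Later Alas1 levels depended on the scale. Its TPM was 6.23, 7.14 and 6.34 at 24 h, then 2.51, 2.07 and 1.54 at 36 h. At 48 h it was 2.00, 1.12 and 2.00, and at 72 h 1.06, 0.438 and 1.13. The TPM mean was lower at each later time, although the 36 and 48 h ranges overlapped, as did those of 48 and 72 h. In TMM-scaled CPM Alas1 stood at 6.47 ± 0.483 (SD, n = 3) at 12 h, 5.61 ± 0.428 at 24 h, 7.67 ± 1.51 at 36 h, 7.30 ± 1.66 at 48 h and 6.57 ± 1.03 at 72 h. On this scale there was no steady fall after 12 h.

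The step from 24 to 36 h had opposite signs on the scales. The TPM ranges did not overlap, and those in TMM-scaled CPM did. With TMM Alas1 rose by 0.47 ± 0.15 (edgeR, log2, adjusted p = 0.00800), and on log2(TPM + 1) it changed by -1.33 (limma, adjusted p = 1.76e-08), where 89.1% of genes were called lower and the median of all genes was -1.84. The TMM rise also missed the threshold without 36 h replicate 1 (0.37, edgeR adjusted p = 0.0591) and without 36 h replicate 2 (0.39, edgeR adjusted p = 0.0557). Changes from 12 to 24 h (-0.20 ± 0.14, edgeR adjusted p = 0.255, 22% of genes called lower), from 36 to 48 h (-0.067 ± 0.16, adjusted p = 0.754) and from 48 to 72 h (-0.17 ± 0.16, adjusted p = 0.370) missed the edgeR threshold. On log2(TPM + 1) limma called Alas1 lower from 12 to 24 h (-0.37, adjusted p = 0.0415), with 45% of genes called lower, and from 48 to 72 h (-0.53, adjusted p = 0.00353), with 59.3% called lower. The fall from 12 to 24 h missed the threshold in limma with a pseudocount of 0.1 (-0.41, adjusted p = 0.192). It also missed it in limma over all genes above 0 TPM in 3 libraries (-0.37, adjusted p = 0.0828). From 0 to 72 h Alas1 fell by 0.68 ± 0.15 with TMM (edgeR, adjusted p = 0.000208, 46.5% of genes called lower). On log2(TPM + 1) it fell by 2.96, a smaller fall than the median of -3.26 for all genes, of which limma called 90.9% lower. Late Alas1 values rest on few counts: the lowest was 71 at 36 h replicate 3, with an exact Poisson 95% interval of 55.5 to 89.6 that covers counting error only.

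**Figure D1:**
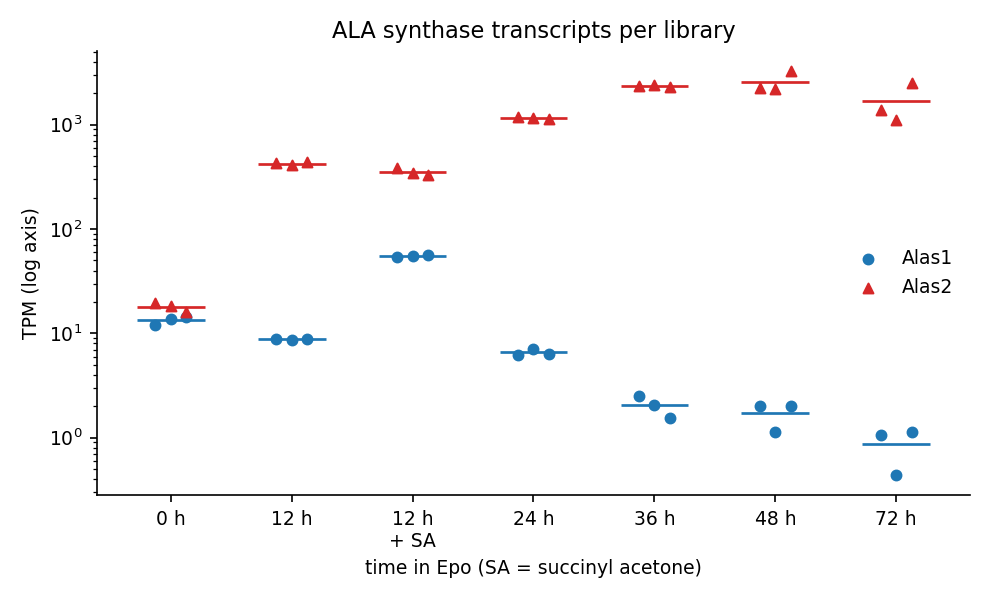
TPM of Alas1 and Alas2 in each of the 21 libraries (points, log axis) by group, with the group means. Alas2 climbs from 16.1 to 19.6 TPM at 0 h to a mean of 2361 TPM at 36 h, Alas1 declines from a mean of 13.4 TPM at 0 h to 0.874 TPM at 72 h (a fall that TMM-scaled CPM does not show after 12 h), and with SA at 12 h Alas1 averages 54.9 TPM.

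**Figure D2:**
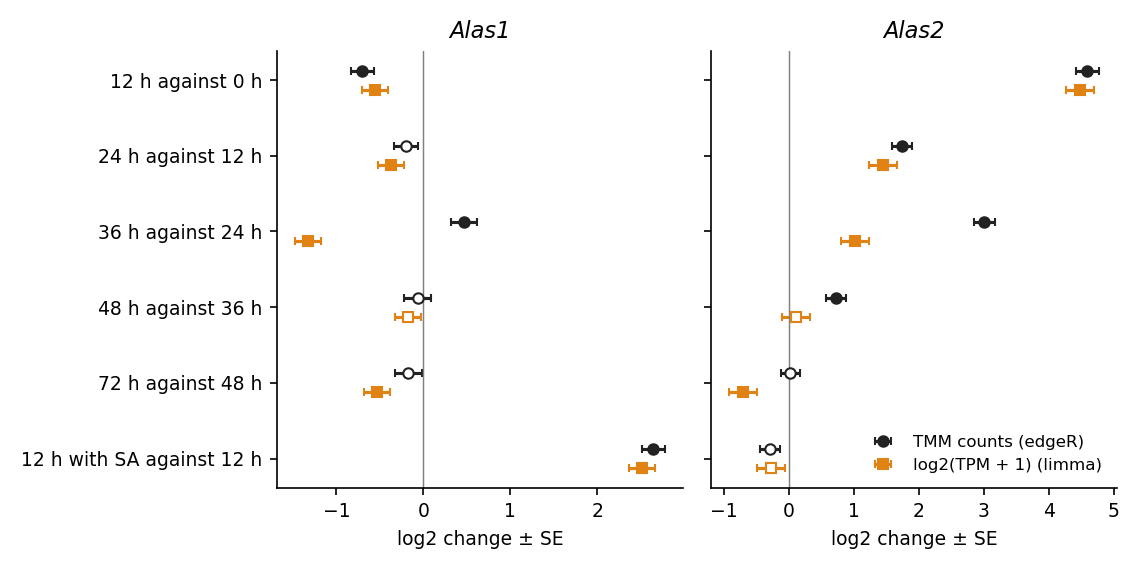
The log2 change ± SE of Alas1 (left) and Alas2 (right) in 6 comparisons, by TMM counts in edgeR (circles) and by log2(TPM + 1) in limma (squares), filled where the adjusted p was at most 0.05. The scales lie close at 12 h and with SA, and Alas1 at 36 h against 24 h has opposite signs, 0.47 and -1.33.

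The ratio of Alas2 to Alas1 within a library does not depend on how libraries are scaled against each other. In TPM it was 1.63, 1.34 and 1.12 at 0 h, and 48.1, 47.4 and 49.4 at 12 h. It then stood at 192, 163 and 178 at 24 h and at 929, 1171 and 1505 at 36 h. Each of these groups lay above the one before with no overlap. At 48 h the ratio was 1137, 1976 and 1635 and at 72 h 1313, 2509 and 2249, and both ranges overlapped their neighbour. Alas2 exceeded Alas1 in 21 of 21 libraries.

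On the log2 scale the mean ratio was 0.43 ± 0.27 (SD, n = 3) at 0 h, 5.59 ± 0.03 at 12 h, 7.47 ± 0.12 at 24 h, 10.20 ± 0.35 at 36 h, 10.59 ± 0.41 at 48 h and 10.93 ± 0.50 at 72 h. Of the whole rise 49.2% fell in the first 12 h. Over the 18 libraries without SA the ratio differed among times (permutation test, 1-sided in F, with 100000 resamples, p = 1e-05, the smallest these can give). The steps were 5.17 from 0 to 12 h, 1.88 to 24 h and 2.73 to 36 h, each with an exact permutation p of 0.1, which is the smallest that 3 against 3 libraries allow. From 36 to 48 h the difference was 0.39 (exact permutation p = 0.3) and from 48 to 72 h 0.34 (exact permutation p = 0.4), neither past the unpaired test. Same-numbered libraries were higher at the later time in 3 of 3 pairs at both of these steps and from 12 to 24 h (exact paired sign-flip test, p = 0.25 each, the smallest that 3 pairs allow). Taken from estimated counts in place of TPM, the difference from 36 to 48 h was 0.81 (exact permutation p = 0.1). As a share of the pair, Alas1 made up 42.7 ± 4.59% of TPM at 0 h (SD, n = 3), 2.03 ± 0.0418% at 12 h and 0.0535% at 72 h.

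**Figure D3:**
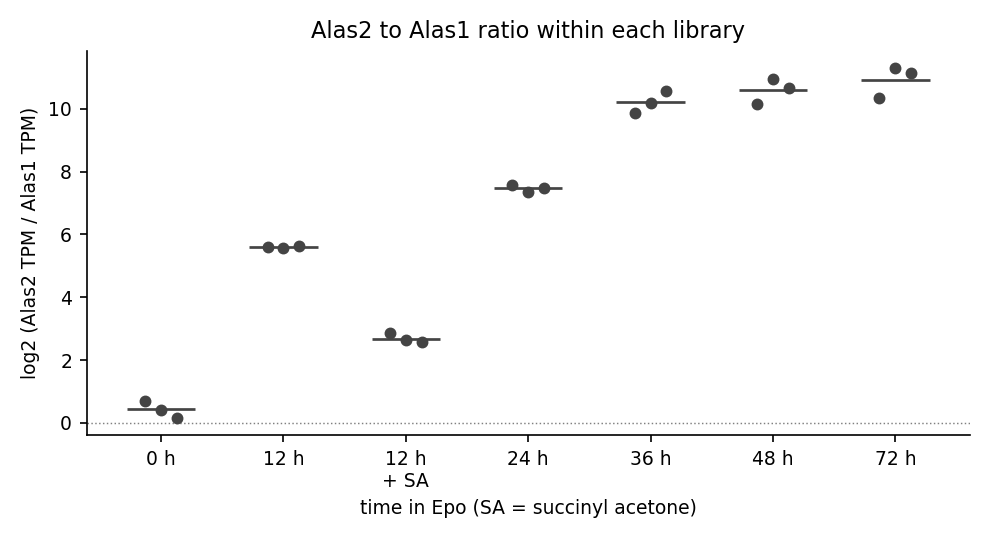
The log2 ratio of Alas2 to Alas1 TPM in each library (points) by group, with the group means of the log2 values. The ratio climbs to 36 h and then overlaps between neighbouring times, and the SA libraries, at log2 ratios of 2.56 to 2.85, lie between those of 0 h and 12 h.

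With SA Alas1 rose, and the change of Alas2 did not pass the main test. Alas1 stood at 53.7, 54.9 and 56.1 TPM after 12 h of Epo with SA, beside 8.83, 8.64 and 8.86 TPM after 12 h of Epo alone. The groups did not overlap, and the SA libraries were also above every library of the time course, the highest of which was 14.5 TPM. By edgeR Alas1 rose by 2.64 ± 0.13 (log2, adjusted p = 1.61e-10), which is 6.23-fold. In this comparison 0.0162% of the tested genes were called higher and 0.364% lower. Alas1 had the smallest p of all 12360 genes. It kept that place in 29 of 30 alternative fits, and ranked 3 by p in limma on all genes above 0 TPM in 3 libraries.

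The only other gene called higher with SA was Sh2d4b, which was picked out after its values were seen. It rose by 1.46 ± 0.29 (edgeR, log2, adjusted p = 0.0220) and was not called once any 1 of the 6 libraries compared was left out, when Alas1 alone was called higher. The count of genes called higher depended on the fit, from 1 to 89 over the 30 alternatives, and was 89 where the 6 libraries were fitted alone. There were 14 genes with a larger fitted rise than Alas1, 0 of them called by edgeR, DESeq2 or limma, which tested 2 of them. Their lowest edgeR adjusted p was 0.695, 7 had an unadjusted p under 0.05, and their mean counts were 2.71 to 169.

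Alas2 values with SA lay slightly under those without it. They were 386.8, 342.3 and 331.7 TPM, beside 425.2, 409.8 and 438.1 TPM without. All SA libraries lay below all libraries without it. Erythroid markers moved with them, their sum being 8620 to 9930 CPM with SA and 11500 to 12600 CPM without, and globin genes took 0.869% to 1.05% and 1.20% to 1.40% of counts. Their part in the Alas2 values was not tested. The edgeR change was -0.28 ± 0.15 with an adjusted p of 0.873 in the fit of all 21 libraries. Fitted on the 6 libraries alone it was -0.30 and passed, with an edgeR adjusted p of 0.0263, where 376 of 11115 genes were called lower. The summed TPM of the pair was 433.1 ± 14.3 (SD, n = 3) without SA and 408.5 ± 28.1 with it, and these ranges overlapped.

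The TPM ratio of Alas2 to Alas1 was 7.20, 6.23 and 5.91 with SA. All 3 values lay below those at 12 h without SA and above those at 0 h. The log2 ratio differed by -2.91 from that at 12 h and by 2.26 from that at 0 h, each with an exact permutation p of 0.1, the smallest possible here. Among same-numbered libraries the ratio was higher with SA than at 12 h in 0 of 3 pairs (exact paired sign-flip test, p = 0.25, the smallest that 3 pairs allow). The Alas1 share of the pair was 13.5 ± 1.17% of TPM with SA (SD, n = 3), beside 2.03 ± 0.0418% without. The comparison of SA with 12 h and that of 12 h with 0 h share the 12 h libraries. Against 0 h, cells with Epo and SA had Alas1 higher by 1.94 ± 0.13 (edgeR, log2, adjusted p = 8.50e-11) and Alas2 higher by 4.31 ± 0.17 (adjusted p = 3.06e-14), where 24.6% of genes were called higher.

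The 7 enzymes that follow aminolevulinate synthase were all called higher at 12 h against 0 h by edgeR, with a median log2 change of 2.10, beside 25.3% of all genes called higher and a median of -0.0071 over all genes. Alad, which makes porphobilinogen, rose by 2.53 ± 0.15, Uros, which closes the tetrapyrrole ring, by 2.95 ± 0.08, and Fech (ferrochelatase), which inserts the iron, by 1.78 ± 0.12. All were smaller than the Alas2 change of 4.60, and opposite to the Alas1 change. With SA 0 of the 7 were called by edgeR in the fit of all libraries, DESeq2 or limma, with 1 lower at an unadjusted edgeR p under 0.05. Their median was -0.18, beside 0.019 for all genes, and the log2 change of Alad, the enzyme SA inhibits, was -0.23 ± 0.14 (adjusted p = 0.941). In the fit of the 6 libraries alone 3 of the 7 were called lower, beside 376 of all 11115 genes tested there. At 72 h against 0 h 5 of the 7 were called higher and 0 lower with TMM, beside 43.3% and 46.5% of all genes. On log2(TPM + 1) limma called 2 higher and 4 lower, beside 5.26% and 90.9% of all genes. Their median there was -0.50, beside -3.26 for all genes.

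Among 8 genes for substrate supply and partners, 1 was called higher and 3 lower at 12 h against 0 h by edgeR, with a median log2 change of 0.046, beside 25.3% of all genes called higher and 27.6% lower. Slc25a38, the mitochondrial carrier that imports glycine, rose by 1.48 ± 0.12. Suclg2, a subunit of the succinyl-CoA ligase that uses GTP, fell by 0.66 ± 0.09. Clpx, an unfoldase that acts on the synthase proteins, changed by 0.14 ± 0.08 (edgeR adjusted p = 0.145). With SA 0 of the 8 were called by edgeR in the fit of all libraries or by limma and 1 by DESeq2, and 1 had an unadjusted edgeR p under 0.05. In the edgeR fit of the 6 libraries alone 2 of the 8 were called lower, beside 376 of all 11115 genes tested there.

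Of 14 regulators, 13 were tested, since Foxo1 had too few counts. At 12 h against 0 h 6 were called higher and 2 lower by edgeR, with a median of 0.19, where 25.3% of all genes were called higher and 27.6% lower. Gata1 rose by 1.23 ± 0.08, Klf1 by 1.47 ± 0.11 and Tal1, a partner of GATA1, by 2.70 ± 0.09. Nr1d1, a heme-binding repressor of the clock, fell by 2.43 ± 0.28, and Aco1, whose protein binds iron-responsive elements when iron is short, fell by 1.04 ± 0.09. Nrf1 itself changed by 0.12 ± 0.08 (edgeR adjusted p = 0.219). With SA 0 of the 13 were called by edgeR or DESeq2 and 0 of the 11 that limma tested, and 0 had an unadjusted edgeR p under 0.05.

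Of 9 genes for heme removal and sensing, 6 were called higher and 3 lower at 12 h against 0 h by edgeR, with a median of 0.68, against 25.3% and 27.6% of all genes. Abcg2, a porphyrin exporter, rose by 2.49 ± 0.11, Eif2ak1, the heme-regulated kinase of translation, by 1.21 ± 0.10, and Flvcr1, known as a heme exporter, fell by 1.52 ± 0.10. Hmox1, the heme oxygenase that breaks heme down and is induced by it, was the 1 member called with SA. It stood at 20.4, 23.3 and 22.4 CPM at 12 h and at 6.31, 8.56 and 7.22 CPM with SA, with no overlap. That was a fall of 1.58 ± 0.30 (edgeR, log2, adjusted p = 0.0194), in the direction opposite to Alas1. It was called in 16 of 21 fits with 1 library left out. Without 12 h replicate 2 or 3, or any 1 of the SA libraries, the change was -1.70 to -1.48 and missed the threshold, with an edgeR adjusted p of up to 0.138. Hmox1 had risen by 1.37 ± 0.30 from 0 to 12 h (edgeR adjusted p = 0.000653), in a comparison that shares the 12 h libraries.

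**Figure D4:**
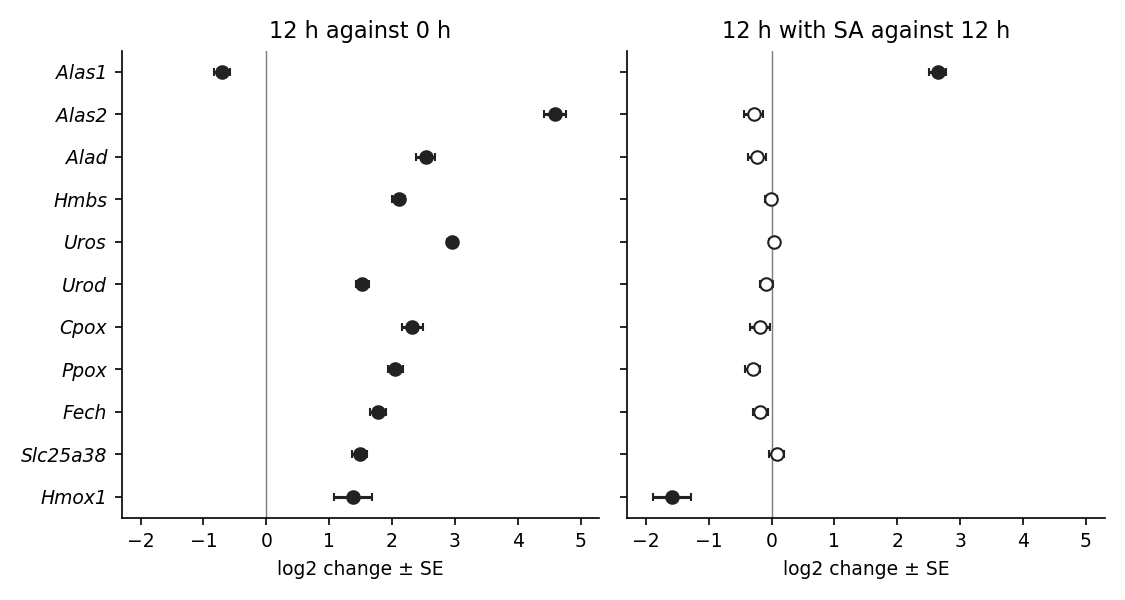
The log2 change ± SE from edgeR of Alas1, Alas2, the 7 later enzymes, Slc25a38 and Hmox1 at 12 h against 0 h and at 12 h with SA against 12 h, filled where the adjusted p was at most 0.05. At 12 h every gene shown but Alas1 lies above 0, and with SA the called genes are Alas1, at 2.64, and Hmox1, at -1.58.

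Ordered by mean TPM, Alas1 was highest with SA, next at 0 h, and then at each later time in turn, and only the neighbours 36 and 48 h and 48 and 72 h overlapped. Alas2 was highest at 48 h, then at 36, 72, 24 and 12 h, with SA and at 0 h. Of these neighbours 48 and 36 h, 36 and 72 h, and 72 and 24 h overlapped. In TMM-scaled CPM the Alas2 order was 72, 48, 36, 24 and 12 h, SA and 0 h, and only 72 and 48 h overlapped.

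The genes most like each member were taken by Pearson's r of log2 TMM-scaled CPM over the 21 libraries, among the 8999 genes averaging 100 or more counts. These share libraries and time, and r is given as a description. The pattern of Alas2 was matched by Epb42 (r = 0.998), Hbb-bt (0.998), Grap2 (0.997), Tead3 (0.996) and Ncf4 (0.995). Epb42 codes for a protein of the red cell membrane skeleton and Hbb-bt for an adult beta globin. None of these genes came as close to Alas1. Its nearest were Ctr9 (0.723), Rpe (0.678), Mbip (0.623), Cbfa2t2 (0.620) and Chmp2b (0.615). Without the SA libraries their r was 0.435, 0.319, 0.463, 0.525 and 0.605, in that order.

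Both genes overlap others on the opposite strand. Apex2, a DNA repair endonuclease gene, shares 311 of the 2403 exonic bases of Alas2. The libraries kept the strand, but whether the counting used it is not given in the sources used here, so reads of the overlap cannot be told apart. Apex2 averaged 7.53 TPM at 0 h, 12.7 at 12 h, 15.3 with SA and 3.03 to 9.46 at later times, low beside Alas2 at every time from 12 h. The antisense gene 4930500F10Rik shares 465 of the 6174 exonic bases of Alas1, and no TPM was found under its symbol.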

How the data were processed

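Polyadenylated RNA of MEDEP cells was sequenced in 21 strand-specific libraries, 7 groups of 3. The authors deposited estimated counts per gene, of which 78.5% were whole numbers (tolerance 1e-06), and TPM per gene. The tools listed per the submitters' processing notes are STAR 2.5.3a, kallisto and DESeq2, with the builds mm10 and GRCm38.p5. Which made which table is not given in the sources used here.

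Estimated counts were rounded and tested with edgeR 4.0.16 (R 4.3.3): filterByExpr with a minimum count of 10, TMM, 1 quasi-likelihood fit of all 21 libraries, Benjamini-Hochberg adjustment over 12360 genes, 2-sided, threshold 0.05. SE was derived as the size of the change over the root of the F statistic. The fit was tested on simulated data in which all groups shared the same gene proportions apart from planted changes. A shift of whole libraries like that with globin mRNA was not simulated. TPM was tested with limma 3.58.1 on log2(TPM + 1), which understates the change of low genes. The Alas2 to Alas1 ratio was compared by exact 2-sided permutation tests with SciPy 1.17.1, over 8 comparisons. Alternatives were DESeq2 1.42.0 with its size factors, no filter, globin genes left out of library sizes, a replicate block, the compared libraries alone, pseudocounts of 1 and 0.1, and leaving out each library.

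Libraries of 1 group differed by more than sampling noise (chi-square per gene of 7.57 to 339). Same-numbered libraries deviated together over 6575 genes, with every correlation over 0.1, for SA against its 12 h control (0.390 to 0.479) and for the steps 12 to 24 h, 36 to 48 h and 48 to 72 h, and the numbers were taken to pair those libraries. In the other comparisons they were not. Genes named are both members, the members of 4 pathway lists by role, and the 5 genes most like each member. The members, lists and tests were chosen with earlier results of these data known. Protein sequences were not used here.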

Additional observations from a re-analysis of the deposited data

How the results depend on the processing

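The rise of Alas1 with SA (2.60 to 2.70 when 1 library was left out) and the Alas2 rises to 12, 24 and 36 h kept their direction and call under every alternative run. On log2(TPM + 1), log2(TPM + 0.1) and log2(TPM + 1) without the filter, in that order, limma gave Alas1 36 h against 24 h as -1.33, -1.66 and -1.33, Alas1 72 h against 48 h as -0.53, -0.94 and -0.53, Alas2 48 h against 36 h as 0.11, 0.11 and 0.11, and Alas2 72 h against 48 h as -0.70, -0.70 and -0.70. Alas1 12 h against 0 h was -0.60 with 0.1, no longer a call. Alas1 24 h against 12 h was -0.37 with 1, now a call, but not one with 0.1 or without the filter. Alas1 72 h against 48 h is a call on these scales. Alas1 48 h against 36 h was 0.058 with DESeq2's size factors in edgeR and 0.058 in DESeq2, and Alas2 72 h against 48 h was -0.067 with no filter. Alas2 with SA was -0.30 with the compared libraries alone. The log2 ratio with a pseudocount of 1 was 2.35 for 36 h against 24 h, -0.16 for 72 h against 48 h, 9.33 for 72 h against 0 h and -2.78 for SA against 12 h, and from estimated counts it was 0.81 for 48 h against 36 h. The cause was not tested.

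Leaving out 1 library gave 0.37 to 0.59 for Alas1 36 h against 24 h, -0.27 to 0.061 for 48 h against 36 h and -0.32 to 0.015 for 72 h against 48 h, and -0.19 to 0.22 for Alas2 72 h against 48 h. The signs turned without 36 h replicate 1 (0.014) or 48 h replicate 3 (0.061) for Alas1 48 h against 36 h, without 48 h replicate 1 (0.015) for Alas1 72 h against 48 h, and without 48 h replicate 3 (-0.0075), 72 h replicate 2 (-0.00033) or 72 h replicate 3 (-0.19) for Alas2.

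With the replicate block, which pairs same-numbered libraries, Alas1 with SA was 2.64 and Alas2 with SA -0.28 (edgeR adjusted p = 0.732), and the block changed no call of the pair. Over all genes with SA, 2 were called higher and 45 lower. These counts, followed after seeing the data, were 5 and 79 with the block, 89 and 376 with the compared libraries alone, 25 and 126 in DESeq2, 2 and 72 with no filter, 2 and 14 with a pseudocount of 0.1 and 37 and 77 in limma without the filter. They ranged from 1 to 4 and from 10 to 71 with 1 library left out.

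For the lists at 72 h against 0 h, limma on log2(TPM + 1) was chosen after seeing the data. It called 2 of the 7 later enzymes higher and 4 lower (5 and 0 with TMM). Of 8 substrate genes it called 0 higher and 8 lower (2 and 6 with TMM). Of 11 regulators it called 2 higher and 9 lower (7 and 5 of 13 with TMM). Of 9 heme removal genes it called 3 higher and 6 lower (4 and 3 with TMM). Over all genes limma called 5.26% higher and 90.9% lower, and edgeR with TMM called 43.3% and 46.5%. Low counts limit Alas1 after 24 h, where it had 71 to 177 counts a library.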
